A study of Mus musculus with 16 samples.

Results

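The response of engrafted brain macrophages to endotoxin was set against that of the host microglia of the same brains, gene by gene. For each gene, the response difference was the log2 fold change to lipopolysaccharide (LPS) in engrafted cells minus that in host microglia, which is the interaction of population and challenge. All 16 samples of the series entered the comparison, and 8847 of the 24411 genes in the deposited table were abundant enough to be tested. Calls needed an absolute log2 value above 1 and an adjusted p below 0.05 (quasi-likelihood test of edgeR, adjusted after Benjamini and Hochberg). A responding gene was called for LPS in at least 1 population, and 319 responding genes were also called for the response difference. These 319 genes, termed differential responders, were sorted into graft-biased genes, with the larger absolute log2 response in engrafted cells, and host-biased genes, with the larger one in host microglia.

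RNA was sequenced from 8 bone marrow chimeras on the C57BL/6J background, all recorded as wild type (WT). Each recipient carried the CD45.2 allele of a leukocyte surface protein, had been irradiated with 950 cGy and had received WT bone marrow with the CD45.1 allele, so that the allele told graft from host. Mice 1 to 4 were injected intraperitoneally with LPS, a cell wall component of Gram-negative bacteria, at 2.5 mg/kg and killed 12 h later. Mice 5 to 8 were left without injection. The challenge was thus peripheral, and contact of the brain cells with LPS itself was not tested. Both populations were sorted from every brain as CD11b-positive cells negative for Ly6C/G that were low in CD45.1 (graft) or in CD45.2 (host), which gave 4 groups of 4 samples, termed graft control, graft LPS, host control and host LPS. About 10000 cells were sorted per sample. The challenge was given 9 months after transplantation according to the methods, while the labels name 3.5 or 9 months without assigning a time to a sample. In every group, host cells had been irradiated in the animal and engrafted cells had not, so that origin and irradiation cannot be told apart. The controls received no vehicle injection.

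Gene counts summed to 395283 to 1203597 reads in a library (median 820587.5). The library of engrafted cells of LPS mouse 4 was the shallowest, and 3 reads, the most that a count of 0 allows, stood for 8.85 CPM there against 2.37 to 5.64 CPM in the others. CPM are read counts divided by the library size in units of a megaread, after TMM scaling in edgeR. The 12 marker genes of microglia and brain macrophages, such as Csf1r and Aif1, summed to between 41400 and 67700 CPM in every library, and none of them was at 0 in any group. Among markers of other cells, those of T and NK cells summed to at most 41.3 CPM in a library, of B cells 81.1 (with Cd79a and Pax5 at 0 in all 16), of endothelial cells 33.5, of neurons 265, of oligodendrocytes 242 and of astrocytes 336. Markers of perivascular macrophages summed to 1960 to 2910 CPM in engrafted cells and 402 to 881 in host microglia, and red blood cell genes to between 3.16 and 10100 CPM. In such bulk samples, fewer cells of a type and less RNA per cell cannot be told apart.

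Macrophages detect LPS through Toll-like receptor 4, which signals to NF-kappaB and, by way of type I interferon, to interferon-stimulated genes. The early products are cytokines, chemokines and feedback inhibitors, and acute-phase proteins and metabolic enzymes follow. Microglia arise from the yolk sac and are known to lower their homeostatic genes, such as Cx3cr1 and Tmem119, when they are challenged, whereas macrophages that enter the brain from transplanted marrow keep part of a marrow-derived programme.

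LPS changed 2302 genes in at least 1 population (26% of those tested). In engrafted cells 790 genes rose (8.93%) and 971 fell (11%), and in host microglia 622 rose (7.03%) and 814 fell (9.2%). Of the responding genes, 887 were called in both populations in the same direction, 866 in engrafted cells alone and 541 in host microglia alone. A call in one population alone did not show that the responses differed, since the response difference was called for 174 of these 866 genes and for 83 of the 541. Over all 8847 tested genes, 421 were called for the response difference (4.76%), 209 with the higher response in engrafted cells (2.36%) and 212 with the lower (2.4%), and 102 of the 421 were called for LPS in neither population. Without host LPS mouse 3, the lower calls numbered 130, and without host control mouse 8 they numbered 141. Where a gene of a list is called higher or lower in engrafted cells below, the call is for this response difference and not for a level. The shares of 2.36% and 2.4% are the reference for each such count, also where they are not repeated.

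The 319 differential responders made up 3.61% of the tested genes and 13.9% of the responding genes. They divided into 142 genes induced more in engrafted cells (graft-induced, 1.61% of tested genes), 75 repressed more in engrafted cells (graft-repressed, 0.848%), 61 induced more in host microglia (host-induced, 0.689%) and 41 repressed more in host microglia (host-repressed, 0.463%). The count of graft-repressed genes was 44 without host LPS mouse 3. For 277 of the 319 genes, the graft-to-host difference per mouse, on a log2(CPM + 2) scale, did not overlap between the 4 LPS and the 4 control mice, which held for 1176 of all tested genes (13.3%). Such a gene has p = 0.0286 in a two-sided exact permutation test over mice, which is the smallest value that 4 against 4 allows. The 319 genes were chosen by the interaction test on the same libraries, so their separation over mice is a description and not independent support. A group in which every library had 3 reads or fewer occurred for 238 responding genes, and 18 of these were called.

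**Figure D1:**
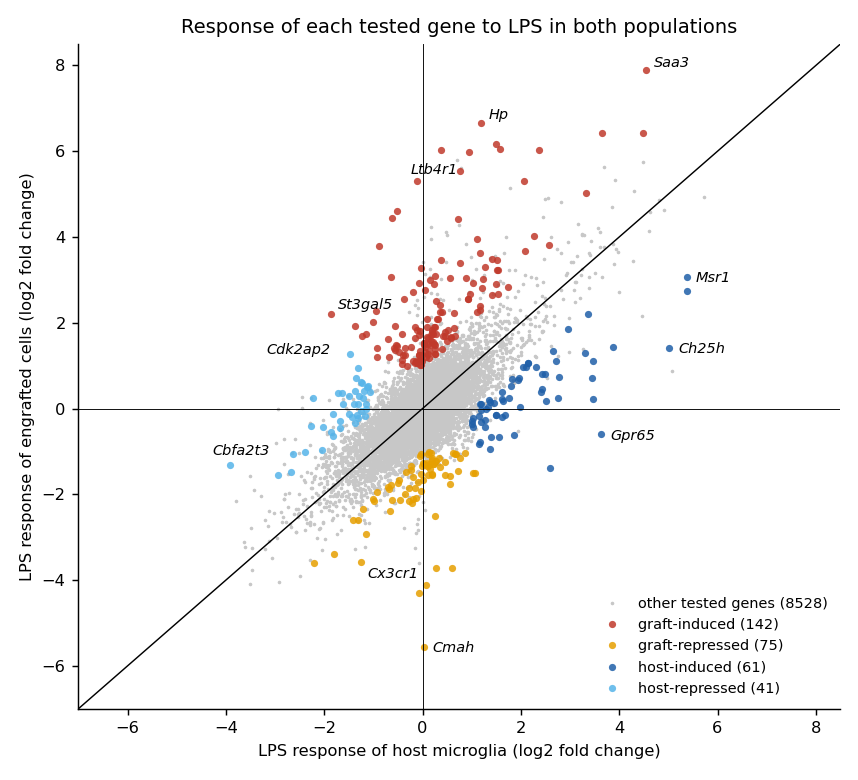
Log2 fold change to LPS in engrafted cells (vertical axis) against that in host microglia (horizontal axis) for each of the 8847 tested genes, with the 4 classes of differential responders in colour and the line of equal response in black. The 142 graft-induced genes lie above the line at the top and the 61 host-induced genes below it at the right, and Gpr65 and Postn rise along the horizontal axis while they lie below 0 on the vertical one.

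Among the genes induced more in engrafted cells, those with a response difference above 5 were Slpi, Hp, Ltb4r1, Gda, Ly6c2 and Clec4e. Hp encodes haptoglobin, a plasma protein that binds free haemoglobin. It was counted at 10.4, 14.1, 27.2 and 30.1 CPM in graft control, 3971, 2554, 1268 and 1074 in graft LPS, 4.51, 4.88, 3.16 and 12.3 in host control and 26.3, 3.95, 18.1 and 22.7 in host LPS. Every graft LPS library stood far above all others, and the host libraries overlapped between control and LPS. The log2 fold change was 6.66 in engrafted cells and 1.20 in host microglia, a response difference of 5.46 (standard error 0.85, adjusted p = 0.000132 from edgeR). Hp lies at chr8:112099028-112103072 of mm9. Saa3, an acute-phase apolipoprotein made by macrophages, rose in both populations, from 62.3, 106, 119 and 94.1 to 29360, 23827, 19602 and 18876 CPM in engrafted cells and from 36.1, 53.7, 52.9 and 140 to 2350, 2981, 761 and 821 CPM in host microglia. No library overlapped between control and LPS within a population, and the populations overlapped only in the controls. The log2 response was 7.89 against 4.55 (response difference 3.33, standard error 0.52, adjusted p = 0.000134 from edgeR).

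Slpi encodes a secreted inhibitor of neutrophil elastase. It was counted at 1.04, 1.76, 5.10 and 7.52 CPM in graft control and at 559, 447, 318 and 192 CPM in graft LPS, whereas no host library held more than 3 reads. After LPS, engrafted cells exceeded host microglia at least 106-fold (chr2:164179806-164182243), and no fold is given for the host response. For Slpi, edgeR gave the response difference an adjusted p of 0.0214, which rose to 0.0575, 0.0541 and 0.157 without host control mouse 6, 7 or 8. The calcium-binding protein S100a4 and Anxa2, which encodes annexin A2, had response differences of 4.67 and 3.71 (adjusted p = 4.87e-05 and 2.33e-05 from edgeR). Of the 25 tested acute-phase and granule proteins, 7 had a higher response in engrafted cells and 1, S100a8, a lower one, beside 2.36% and 2.4% of all tested genes. The median response difference of the list was 1.95, beside -0.03 over all tested genes. Members high in graft LPS alone, such as Slpi, passed the count filter through that group. The count and the median of the list are therefore a description and not support.

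Among receptors, Ltb4r1, the high-affinity receptor for the chemoattractant leukotriene B4, had 3.11, 8.82, 10.2 and 13.2 CPM in graft control, 512, 323, 238 and 611 in graft LPS, 4.51, 3.90, 3.16 and 7.15 in host control and 3.43, 2.96, 4.82 and 5.66 in host LPS. It was high in graft LPS only, and the 3 other groups overlapped. Its log2 response was 5.30 in engrafted cells and -0.10 in host microglia (response difference 5.41, standard error 0.72, adjusted p = 2.13e-05 from edgeR; chr14:56384799-56387329). Clec4e and Clec4d encode the lectins Mincle and MCL, which bind mycobacterial glycolipids, and are neighbours on chromosome 6. Clec4e rose from 2.08, 0, 3.40 and 7.52 to 420, 482, 305 and 162 CPM in engrafted cells, and had 1.5, 3.90, 0.790 and 0 CPM in host control and 6.87, 5.93, 4.82 and 2.83 CPM in host LPS. The host libraries overlapped between control and LPS, and the response difference was 5.05 (standard error 1.29, adjusted p = 0.0170 from edgeR, 0.270 without host control mouse 6). For Clec4d the log2 response was 5.30 and 2.07, both called, with a difference of 3.22 (adjusted p = 0.0120, and 0.0704 and 0.0824 without host control mouse 7 or 8). The C-type lectin receptors as a list went both ways. Of 17 tested genes, 2 had a higher response in engrafted cells and 3 a lower one, beside 2.36% and 2.4% of all tested genes.

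Ly6c2, whose protein is part of the Ly6C antigen that the sort excluded, was counted at 24.9, 37.0, 40.8 and 22.6 CPM in graft control and at 863, 870, 712 and 434 CPM in graft LPS, against 12.0, 11.7, 1.58 and 16.4 in host control and 3.43, 5.93, 3.61 and 9.91 in host LPS. Its response difference was 5.06 (standard error 0.56, adjusted p = 9.87e-07 from edgeR). The 12 monocyte markers that include it summed to 495 to 593 CPM in graft control, 1590 to 2700 in graft LPS, 68.7 to 160 in host control and 39.5 to 99.1 in host LPS. Ly6c2, itself a graft-induced gene, made up part of that sum. Of the 10 tested markers, 2 were called with a higher response in engrafted cells, beside 2.36% of all tested genes. These were Ly6c2 and Nr4a1, of which Nr4a1 was host-repressed. The monocyte genes Plac8, Chil3 and F13a1 were counted at up to 31.1, 35.7 and 57.8 CPM in graft control and up to 627, 317 and 252 CPM in graft LPS libraries. Ccr2, the chemokine receptor of inflammatory monocytes, went the other way, from 87.2, 198, 126 and 237 CPM in graft control to 40.1, 31.7, 62.2 and 53.1 CPM in graft LPS. Neutrophil markers summed to 128 to 508 CPM in graft control and 52.4 to 278 in graft LPS, with Ly6g at no more than 2.95 CPM in any graft LPS library. The part of monocytes in these responses was not tested.

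Of the 20 tested chemokine ligands, 13 rose and 2 fell in engrafted cells, beside 8.93% and 11% of all tested genes. In host microglia 10 rose, beside 7.03%. For the response difference, 4 of the 20 (Ccl5, Ccl6, Ccl7 and Ccl9) had a higher response in engrafted cells, beside 2.36% of all tested genes. A lower one was called for 2 (Ccl12 and Cxcl14), beside 2.4%. Ccl5, which attracts T cells and monocytes, rose from 48.8, 42.3, 93.5 and 82.8 to 8636, 6217, 4802 and 3793 CPM in engrafted cells and from 120, 79, 150 and 143 to 2740, 1992, 1034 and 576 CPM in host microglia. Engrafted cells were below most host libraries before challenge and above all of them after it. The response difference was 2.76 (standard error 0.48, adjusted p = 0.000502 from edgeR; chr11:83339281-83344020). Ccl6 turned the order round without overlap. It had 64.4, 61.7, 64.6 and 111 CPM in graft control against 178, 195, 170 and 157 in host control, and 396, 239, 323 and 552 in graft LPS against 76.7, 111, 80.7 and 87.8 in host LPS (response difference 3.23, standard error 0.31, adjusted p = 8.16e-08 from edgeR). The log2 response of Ccl6 was 2.28 in engrafted cells and -0.95 in host microglia. Ccl7, a monocyte attractant, rose by 2.42 on the log2 scale in engrafted cells and had a log2 response of 0.35 in host microglia (difference 2.07, adjusted p = 2.33e-05 from edgeR). Ccl12, a related monocyte attractant, ran the other way at -0.56 against 0.92 (difference -1.48, adjusted p = 0.00106), and neither response passed the fold threshold on its own. The call of Ccl9 (difference 1.41, adjusted p = 0.0407) was lost when any of 9 libraries was left out, with adjusted p up to 0.109, and that of Cxcl14 (-1.74, adjusted p = 0.0191) without host LPS mouse 4 (0.0647) or host control mouse 7 (0.0667).

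Of 52 tested interferon-stimulated antiviral genes, 21 rose and none fell in engrafted cells, beside 8.93% of all tested genes rising, and 14 rose and 1 fell in host microglia, beside 7.03% rising. Their median log2 response was 0.64 and 0.48, and the response difference had a median of 0.20. It was called higher in engrafted cells for 5 genes and lower for 1, beside 2.36% and 2.4% of all tested genes. Isg15, a ubiquitin-like modifier, had 50.9, 52.9, 54.4 and 52.7 CPM in graft control, 476, 505, 311 and 490 in graft LPS, 31.6, 48.8, 62.4 and 60.3 in host control and 133, 230, 79.5 and 48.2 in host LPS. The engrafted libraries separated fully, while host LPS mouse 4 stayed among the host controls. The log2 response was 3.02 against 1.23 (difference 1.79, standard error 0.43, adjusted p = 0.0102 from edgeR; chr4:155573533-155574927). Irf7, the transcription factor that amplifies type I interferon, rose from 171, 134, 189 and 190 to 1369, 1301, 780 and 959 CPM in engrafted cells and went from 73.7, 71.2, 86.9 and 88.9 to 166, 198, 165 and 110 CPM in host microglia. Control and LPS libraries did not overlap in either population, and the response difference was 1.70 (standard error 0.28, adjusted p = 0.000314 from edgeR). Isg20, an exonuclease, and Oas3, an oligoadenylate synthetase, had differences of 1.85 and 1.68 (adjusted p = 0.0113 and 0.0144). Dhx58, the helicase LGP2, and Eif2ak2, the kinase PKR, sat near the threshold at 1.30 and -1.02, and their calls were lost when any of 11 and 8 libraries was left out. EdgeR and DESeq2 called none of the 11 tested interferon-inducible GTPases (median 0.43), whereas Gbp2 was called higher in engrafted cells at 1.31 with the mouse as a block and was the 1 past the fold threshold at an unadjusted p below 0.05. Of 22 genes of MHC class I presentation the 2 called, H2-T22 and H2-T9, had identical counts in every library and cannot be told apart.

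The promoters of 2 of these genes are shown with every match to the core of the interferon-stimulated response element, GAAANNGAA, in capitals. They were chosen as promoters with such a match upstream of the start site, of genes in both the interferon list and the graft-induced class. Each is a stretch of 60 bases upstream of the start site from RefSeq, build GRCm38.p6, read 5′ to 3′ on the strand of the gene, at chr4:156200850-156200909 for Isg15 and chr5:120777694-120777753 for Oas3, both on the minus strand.
Isg15: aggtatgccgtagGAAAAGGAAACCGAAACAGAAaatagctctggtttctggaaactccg
Oas3: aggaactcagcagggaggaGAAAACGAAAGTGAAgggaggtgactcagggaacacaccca
The capitals hold 3 overlapping matches for Isg15 and 2 for Oas3, and the match nearest the start site begins at -66 and -69 from it. Irf7, Isg20 and Dhx58, of the same list and class, had no such match upstream of the start site or no promoter sequence available. With both strands read, 13 of 118 graft-induced genes with a promoter in the table (11%) held this core in the 300 bases from 250 before to 50 after the start, beside 537 of 7166 tested genes (7.49%). The NF-kappaB core GGANTTTCC was held by 2 of the 118 (1.69%) beside 100 of 7166 (1.4%), the AP-1 site TGANTCA by 10 (8.47%) beside 350 (4.88%), and TGANNTCA by 5 (4.24%) beside 712 (9.94%). For the other 3 classes fewer than 80% of the genes had a promoter in the table, 68.3 to 74.7%, and such shares are void. A match is a run of letters and no shown binding site.

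Of 24 tested genes of glycolysis and hypoxia, 8 were called with a higher response in engrafted cells, beside 2.36% of all tested genes, and none with a lower one. The median response difference was 0.74, with 19 positive and 5 negative values, and 12 rose in engrafted cells against 6 in host microglia. Without both libraries of LPS mouse 4, the glucose transporter Slc2a3 was called with a lower response in engrafted cells (-1.39). Tpi1, triosephosphate isomerase, had 85.1, 98.8, 119 and 105 CPM in graft control and 341, 300, 248 and 431 in graft LPS, against 126, 105, 122 and 120 in host control and 120, 127, 139 and 116 in host LPS. All 4 graft LPS libraries stood above every other library, and the host groups overlapped (difference 1.58, standard error 0.24, adjusted p = 0.000132 from edgeR). Slc16a3, which encodes the lactate exporter MCT4, had a difference of 1.89, aldolase (Aldoa) 1.27, the phosphofructokinase Pfkl 1.17, pyruvate kinase (Pkm) 1.14 and lactate dehydrogenase (Ldha) 1.11. Hilpda, which coats lipid droplets under hypoxia, differed by 1.60 (adjusted p = 0.0130, and 0.0703 without host control mouse 7). Hexokinase 3 (Hk3) had a positive difference of 1.20 of another kind, since it fell in host microglia (log2 response -1.83) and had -0.63 in engrafted cells. The 74 tested subunits of oxidative phosphorylation had a median of 0.13, and edgeR and DESeq2 called none (1, Cox6a2 at -1.12, past the fold threshold at an unadjusted p below 0.05).

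Arg1, the arginase of alternatively activated macrophages, was counted at 2.08, 1.76, 3.40 and 7.52 CPM in graft control and 545, 357, 315 and 496 CPM in graft LPS, with 1.5, 0, 0 and 4.09 CPM in host control and 12.6, 3.95, 9.64 and 7.08 CPM in host LPS. Both populations rose, by 6.18 and 1.5 on the log2 scale, and the difference of 4.68 (standard error 1.30, adjusted p = 0.0305 from edgeR) lost its call without graft control mouse 6 (adjusted p = 0.0517) or host control mouse 5 (0.0598) or 8 (0.594). Nr1h3, the oxysterol receptor LXR alpha, rose from 4.15, 7.05, 1.70 and 3.76 to 42.3, 29.2, 63.5 and 91.5 CPM in engrafted cells and stayed at or under 3 reads in all host LPS libraries, which left it at least 15.9-fold higher in engrafted cells after LPS (response difference with adjusted p = 0.0028 from edgeR). Plin2, the lipid droplet protein, and Scd2, a fatty acid desaturase, differed by 1.72 and 1.80 (adjusted p = 0.00177 and 8.63e-05). The list of sterol synthesis and lipid handling was split, with a higher response in engrafted cells for 3 of 23 genes and a lower one for 4. That of immune effector metabolism had a higher response for 4 of 31 and a lower one for 2. Beside the counts of both lists, 2.36% and 2.4% of all tested genes were called. Leaving out single libraries gave 1 to 4 higher and 2 to 3 lower responses in the latter list. Its member Sod2 (response difference 1.70, adjusted p = 0.0477 from edgeR) was not called by DESeq2 or under scaling by library totals. Sod2 also lost its call in most fits without 1 library, with adjusted p up to 0.103 from edgeR.

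Complement genes were also divided. Cfb, factor B of the alternative pathway, had 9.34, 5.29, 13.6 and 7.52 CPM in graft control, 736, 586, 421 and 366 in graft LPS, 1.5, 0.976, 3.16 and 5.11 in host control and 4.58, 5.93, 6.02 and 9.91 in host LPS. Only graft LPS was high, and the response difference was 4.77 (standard error 0.77, adjusted p = 0.000216 from edgeR; chr17:34993319-34999459). Cfp, properdin, which stabilises the convertase that factor B forms, differed by 2.45 (adjusted p = 0.00455, and 0.0784 without host control mouse 8), and Itgam, the CD11b chain of complement receptor 3 and one of the sort markers, by 1.07 (adjusted p = 0.00159, falling to a difference of 0.99 without graft LPS mouse 1). C4b and C3ar1 ran the other way. Of 15 complement genes, 3 thus had a higher and 2 a lower response in engrafted cells, beside 2.36% and 2.4% of all tested genes.

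Feedback inhibitors and inhibitory receptors were induced more in engrafted cells for some members. Socs3, which blocks cytokine receptor signalling, rose from 173, 150, 122 and 107 to 1626, 2174, 1010 and 1553 CPM in engrafted cells and from 483, 509, 486 and 626 to 1591, 1961, 971 and 1086 CPM in host microglia. The populations did not overlap before LPS and overlapped after it (difference 2.08, standard error 0.31, adjusted p = 9.41e-05 from edgeR). The inhibitory receptor Pirb, which shares sequence with its activating paralogs, went from 67.5, 169, 96.9 and 169 to 1066, 959, 1056 and 1101 CPM in engrafted cells and from 102, 97.6, 114 and 117 to 219, 169, 212 and 201 CPM in host microglia (difference 2.18, standard error 0.30, adjusted p = 2.56e-05 from edgeR). Control libraries overlapped between the populations, and graft LPS stood above host LPS in every mouse. Fcgr2b, the inhibitory Fc receptor, was the 1 of 9 Fc receptors called (difference 1.62, adjusted p = 0.000127). Cdkn1a, the cell cycle inhibitor p21, had 167, 123, 161 and 152 CPM in graft control and 1099, 1093, 844 and 1027 in graft LPS, and 1952, 1468, 1179 and 2044 in host control and 1445, 1226, 1825 and 1307 in host LPS. Host microglia were high with and without LPS, and engrafted cells approached their range after LPS without reaching it (difference 2.92, standard error 0.26, adjusted p = 1.81e-08 from edgeR). Cdkn1a and cyclin D3 (Ccnd3, difference 1.81) were the 2 of 13 cell cycle genes called, beside 4.76% of all tested genes. The 2 of 24 glucocorticoid-induced genes called (8.33%, beside 4.76% of all tested genes) were Cdkn1a and the metallothionein Mt2. The log2 response of Mt2 was 6.43 against 4.48 (difference 1.95, adjusted p = 0.00249). Among 30 genes of integrins and adhesion, 4 were called, all with a higher response in engrafted cells, beside 2.36% of all tested genes. They were Itgam, Pecam1, Selplg, which was called as falling in host microglia only, and the hyaluronan receptor Cd44 (difference 2.01, adjusted p = 0.0194, and 0.101 without host control mouse 6).

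The genes repressed more in engrafted cells held receptors of resting microglia and genes of antigen presentation. Cx3cr1, the fractalkine receptor, was at 3717, 3865, 4033 and 3625 CPM in graft control and 4128, 4148, 3950 and 3611 in host control, and at 238, 247, 435 and 360 in graft LPS against 1515, 1250, 2096 and 1743 in host LPS. Controls overlapped between the populations, and after LPS every engrafted library was below every host library. It fell by 3.57 on the log2 scale in engrafted cells and by 1.26 in host microglia (difference -2.31, standard error 0.25, adjusted p = 7.76e-07 from edgeR; chr9:119957801-119977414). Tgfbr2, a receptor of the TGF-beta that maintains microglia, went from 402, 409, 428 and 472 to 82.4, 88.9, 101 and 106 CPM in engrafted cells and from 430, 372, 387 and 357 to 197, 153, 214 and 214 CPM in host microglia, again level in the controls and apart after LPS (difference -1.18, standard error 0.22, adjusted p = 0.00138 from edgeR). Mef2c, a transcription factor of microglia, fell in both populations, by 2.34 and 1.22 on the log2 scale, with a difference of -1.13 (adjusted p = 0.0222) that was not called when any of 5 libraries was left out, with adjusted p up to 0.0638. Of the 49 tested homeostatic microglia genes, 25 fell in engrafted cells and 25 in host microglia, beside 11% and 9.2% of all tested genes. The median log2 response of the list was -1.03 in both. In that list, 3 genes had a lower response in engrafted cells (Cx3cr1, Tgfbr2 and Mef2c) and 4 a higher one (Tmem119, Selplg, Lst1 and Gpr84). The call of Gpr84 (difference 1.10, adjusted p = 0.0400) was lost when any of 10 libraries was left out, with adjusted p up to 0.109, and under scaling by library totals.

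MHC class II genes were far more abundant in engrafted cells than in host microglia before and after LPS. H2-Eb1, the beta chain of I-E, was counted at 2926, 6523, 3817 and 5346 CPM in graft control, 769, 1111, 988 and 1526 in graft LPS, 19.6, 64.4, 31.6 and 29.6 in host control and 24, 30.6, 41.0 and 39.7 in host LPS. It fell in engrafted cells without overlap while the host groups overlapped (difference -1.96, standard error 0.41, adjusted p = 0.0033 from edgeR). Cd74, the invariant chain, fell from 3358, 8491, 4757 and 6686 to 1879, 1776, 1787 and 2999 CPM in engrafted cells, and had 49.7, 160, 113 and 81.8 CPM in host control and 182, 207, 163 and 129 CPM in host LPS (difference -2.19, standard error 0.38, adjusted p = 0.000466 from edgeR). After the fall, graft LPS still stood above every host library. H2-Ab1 differed by -1.25 (adjusted p = 0.0398), and its call was lost when any of 10 libraries was left out, with adjusted p up to 0.116. Of 12 tested class II genes, 3 were called and all 3 had a lower response in engrafted cells, beside 2.4% of all tested genes. The median response difference of the list was -0.52. The dendritic cell markers summed to 478 to 579 CPM in graft control and 112 to 152 in graft LPS, and to 936 to 1200 and 334 to 549 CPM in host control and LPS. Nearly all of these reads came from Siglech, which microglia also express. It had 546, 437, 472 and 538 CPM in graft control and 934 to 1200 CPM in host control. Clec9a had 4.15, 24.7, 1.7 and 1.88 CPM in graft control and no read in any graft LPS library. Ccr7 reached 18.8 CPM in graft control and 21.9 CPM in graft LPS. The part of dendritic cells in these values was not tested.

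Cmah, which makes N-glycolylneuraminic acid, had 129, 113, 119 and 97.8 CPM in graft control, no read in any graft LPS library and at most 1.20 CPM in any host library. Graft control was therefore at least 23.2-fold above graft LPS and at least 35.6-fold above host control, and no fold is given for the host response. The adjusted p of its response difference, 0.0318 from edgeR, was 1.0 without host LPS mouse 3, which held the only host LPS read. The fatty acid scavenger receptor Cd36 had 59.2, 81.1, 23.8 and 67.7 CPM in graft control and at most 3 reads in each graft LPS library, a fall of at least 11.7-fold, with at most 4.82 CPM in any host library (adjusted p of the response difference 0.00919 from edgeR, and 0.181 without host LPS mouse 3). The macrophage galactose lectin Mgl2 followed the same course from 26.0, 98.8, 30.6 and 64.0 CPM to at most 3 reads per library, at least 11.1-fold, with no more than 1.95 CPM in any host library, and its response difference was not called (adjusted p = 0.230). Of 12 scavenger receptors, 1 had a higher response in engrafted cells (Scarb1) and 2 a lower one (Cd36 and Msr1). The call of Scarb1 (difference 1.08, adjusted p = 0.0393) was lost when any of 10 libraries was left out and under scaling by library totals. Clec7a, the beta-glucan receptor dectin-1, fell in both, by 2.92 and 1.15 on the log2 scale (difference -1.77, standard error 0.35, adjusted p = 0.00174). The oxysterol-sensing receptor Gpr183 fell from 431, 388, 430 and 367 to 116, 113, 132 and 257 CPM in engrafted cells and had 318, 303, 359 and 283 CPM in host control and 327, 328, 365 and 391 in host LPS (difference -1.58, standard error 0.28, adjusted p = 0.000532 from edgeR). Krt18, an epithelial keratin, was called at -4.30 (adjusted p = 0.0142) on graft controls of 184, 40.6, 5.10 and 18.8 CPM. The first stood far above the others and the lowest lay within the range of graft LPS, and the call was lost without host LPS mouse 3 (adjusted p = 0.0515).

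**Figure D2:**
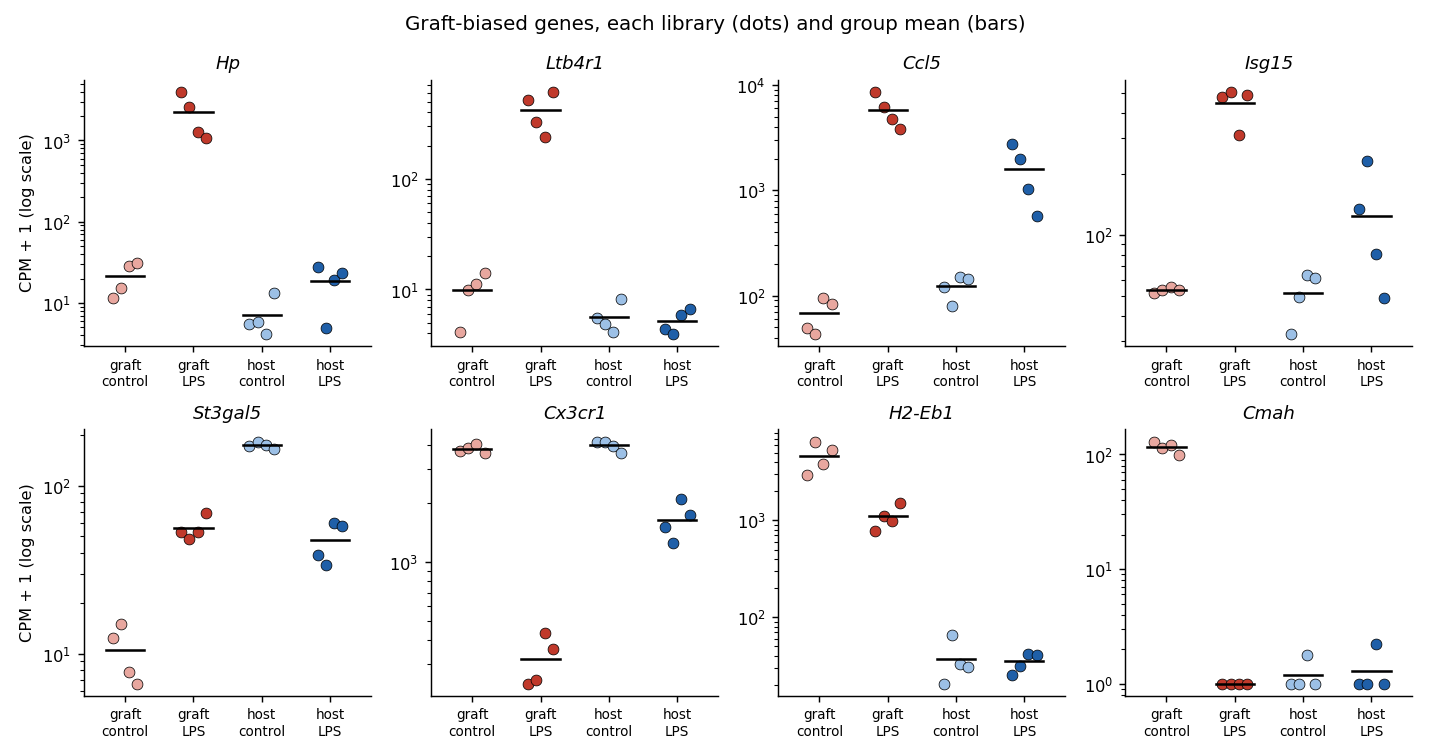
CPM plus 1 on a log scale for 8 graft-biased genes, with 1 dot per library and a bar at the mean of the 4 libraries of a group. Hp, Ltb4r1, Ccl5 and Isg15 are highest in graft LPS, Cx3cr1, H2-Eb1 and Cmah fall most in engrafted cells, and St3gal5 rises in engrafted cells and falls in host microglia.

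Among the genes induced more in host microglia, Gpr65 had the largest absolute response difference. Gpr65, an acid-sensing receptor, had 581, 367, 464 and 440 CPM in graft control and 380, 268, 399 and 156 in graft LPS, against 37.6, 26.3, 33.2 and 26.6 in host control and 426, 332, 451 and 432 in host LPS. Host microglia moved from far below the engrafted cells to their range. The log2 response was -0.60 in engrafted cells and 3.64 in host microglia (difference -4.24, standard error 0.32, adjusted p = 1.43e-09 from edgeR; chr12:99506845-99514932). Lilrb4a, an inhibitory receptor with a close paralog, went from 39.1, 43.9, 51.3 and 61.3 to 547, 610, 533 and 555 CPM in host microglia and from 675, 744, 734 and 730 to 1405, 1346, 1130 and 853 CPM in engrafted cells. Engrafted cells stayed above host microglia in both states, and the host response was the larger (log2 response 3.45 against 0.72, difference -2.73, standard error 0.24, adjusted p = 1.81e-08 from edgeR). Ms4a6c, a membrane protein of the CD20 family, reached 642, 655, 861 and 816 CPM in host LPS from 57.2, 38.0, 56.9 and 40.9 in host control, beside 906, 769, 1089 and 1054 in graft LPS and 324, 377, 335 and 363 in graft control (difference -2.44, standard error 0.24, adjusted p = 1.72e-07 from edgeR). The lists of paired and inhibitory receptors (2 of 33 responses higher in engrafted cells, 1 lower) and of G protein-coupled receptors (5 of 39 higher, 7 lower) went both ways. The shares of all tested genes were 2.36% and 2.4%.

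Msr1, scavenger receptor A, rose in host microglia from 4.51, 2.93, 13.4 and 15.3 to 590, 541, 429 and 419 CPM and in engrafted cells from 79.9, 68.8, 68.0 and 90.3 to 796, 654, 504 and 694 CPM. The fold was larger in host microglia (log2 response 5.38 against 3.07, difference -2.31, standard error 0.33, adjusted p = 6.27e-05 from edgeR), but the mean rise in CPM was 486 in host microglia and 585 in engrafted cells. Dab2, an endocytic adaptor, behaved alike, with log2 responses of 3.47 and 1.10 (difference -2.37, adjusted p = 3.99e-06) and mean rises of 136 and 243 CPM. The order of the populations thus depended on the scale for 10 of the 61 host-induced genes, among them Cp, Ifi207 and Aoah, and for 6 of the 142 graft-induced, 2 of the 75 graft-repressed and 4 of the 41 host-repressed genes.

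The Toll-like receptor genes Tlr2 and Tlr7 were host-induced. Tlr2, which binds bacterial lipopeptides, rose from 155, 162, 222 and 171 to 1124, 1629, 669 and 593 CPM in host microglia, while engrafted cells had 336, 333, 393 and 406 CPM in the controls and 660, 972, 533 and 396 after LPS. Graft LPS mouse 4 lay among the graft controls, and host libraries did not overlap (log2 response 2.48 against 0.81, difference -1.67, standard error 0.36, adjusted p = 0.00455 from edgeR; chr3:83640194-83645530). Tlr7, which senses single-stranded RNA, started level, at 199, 204, 187 and 110 CPM in host control and 185, 178, 172 and 169 in graft control, and reached 867, 818, 767 and 656 CPM in host LPS against 411, 381, 441 and 239 in graft LPS (difference -1.07, standard error 0.27, adjusted p = 0.0167 from edgeR). Its difference was -0.93 without graft LPS mouse 4 and -0.90 without host control mouse 8, under the fold threshold. Of the 20 genes of the Toll-like receptor module, Tlr2 and Tlr7 were called with a lower response in engrafted cells, beside 2.4% of all tested genes. None was called with a higher one. Nfkbiz, an inducible regulator of NF-kappaB, had log2 responses of 1.26 in host microglia and -0.44 in engrafted cells (difference -1.70, adjusted p = 8.34e-05). Of the 32 genes of NF-kappaB and its feedback, 2 had a lower and 2 a higher response in engrafted cells. Dusp2, among the latter (response difference 1.75, adjusted p = 0.0487 from edgeR), was not called by DESeq2 or under scaling by library totals. Dusp2 also lost its call in most fits without 1 library, with adjusted p up to 0.105 from edgeR. Leaving out single libraries gave 1 to 3 higher responses in this list. C3ar1, the receptor of the complement peptide C3a, rose in host microglia from 376, 379, 364 and 255 to 1030, 1129, 811 and 613 CPM and went from 497, 533, 544 and 425 to 256, 238, 277 and 272 CPM in engrafted cells, so that the order of the populations turned round without overlap after LPS (difference -2.31, standard error 0.26, adjusted p = 9.87e-07 from edgeR).

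Ahr, the aryl hydrocarbon receptor, had no read in any host control library and 17.2, 22.7, 8.43 and 7.08 CPM in host LPS, a rise of at least 4.3-fold, whereas engrafted cells had 60.2, 45.8, 28.9 and 47.0 CPM in the controls and 70.1, 62.1, 53.1 and 26.6 after LPS. Engrafted libraries overlapped between control and LPS and were all above the host (adjusted p of the response difference 0.00034 from edgeR). Cybb, the catalytic subunit of the phagocyte NADPH oxidase, rose in host microglia from 33.1, 42.0, 46.6 and 40.9 to 250, 223, 117 and 85 CPM and had 992, 1047, 986 and 973 CPM in graft control and 1308, 1230, 1026 and 514 in graft LPS (difference -1.95, standard error 0.37, adjusted p = 0.00129 from edgeR). Ch25h, which makes the antiviral oxysterol 25-hydroxycholesterol, varied widely in host LPS, at 958, 1764, 196 and 86.4 CPM against 16.6, 28.3, 24.5 and 12.3 in host control, beside 137, 143, 89.4 and 106 in graft LPS and 42.6, 30, 54.4 and 47.0 in graft control. Host LPS mice 1 and 2 were far above mice 3 and 4, and mouse 4 was below the range of graft LPS (difference -3.61, standard error 0.79, adjusted p = 0.00481 from edgeR, exact permutation p = 0.0571 over mice). The neutrophil and monocyte gene S100a8 was called at an adjusted p of 0.0377 on host LPS values of 6.87, 14.8, 7.23 and 2.83 CPM against at most 3 reads in each host control library, at least 2.47-fold, and leaving out any of 8 libraries removed the call, with adjusted p up to 0.121. The mean of S100a8 changed by -51.4 CPM in engrafted cells (log2 response -0.62) and by 7.48 CPM in host microglia (1.86). Neutrophil markers summed to 0 to 4.88 CPM in host control and 0.988 to 9.91 CPM in host LPS. In graft control they summed to 128 to 508 CPM and in graft LPS to 52.4 to 278 CPM. The part of neutrophils in these values was not tested.

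Marco, the scavenger receptor that binds bacteria, had no read in 1 group and could not be compared as a fold. It was at 0 in all 4 graft control libraries, at 5.56, 1.22, 0 and 0 CPM in graft LPS, at no more than 3 reads in each host control library and at 211, 258, 33.7 and 21.2 CPM in host LPS. The host rise was at least 40.7-fold and called, and host LPS lay 4.89 log2 units above graft LPS (adjusted p = 3.94e-06 from edgeR), but with no read in graft control the difference of fold changes had an adjusted p of 0.957. Over mice, the graft-to-host differences of LPS and control mice did not overlap (exact permutation p = 0.0286). Il12b, the p40 subunit of interleukin 12, was similar at lower counts, with 42.4, 72.1, 21.7 and 17.0 CPM in host LPS and 17.8, 13.4, 9.07 and 0 CPM in graft LPS (difference -1.52, adjusted p = 0.441).

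The genes repressed more in host microglia included markers of microglia that engrafted cells held at lower levels. Tmem119 had 2104, 3570, 3075 and 3824 CPM in host control and 759, 771, 1094 and 1279 in host LPS, against 1265, 1032, 1423 and 1136 in graft control and 717, 1050, 826 and 959 in graft LPS. Host microglia fell to the level of engrafted cells, whose libraries overlapped between control and LPS (log2 response -1.69 against -0.45, difference 1.23, standard error 0.27, adjusted p = 0.00553 from edgeR; chr5:114243738-114250361). Selplg, the ligand of P-selectin, fell from 7030, 7231, 6810 and 8225 to 2468, 2515, 3284 and 4049 CPM in host microglia and had 1045, 926, 1234 and 1134 CPM in graft control and 866, 1076, 1121 and 1095 in graft LPS (difference 1.19, standard error 0.23, adjusted p = 0.0014 from edgeR). Lst1, an inhibitory membrane protein of myeloid cells, fell in both, to 26.3, 19.8, 18.1 and 17.0 CPM in host LPS and 84.6, 87.7, 79.1 and 67.9 in graft LPS, from overlapping controls (difference 1.59, adjusted p = 0.000251).

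Transcriptional regulators of this class were Cbfa2t3 and Nr4a1. Cbfa2t3, the corepressor ETO2, fell from 286, 193, 253 and 196 to 8.01, 8.89, 16.9 and 19.8 CPM in host microglia and from 201, 152, 209 and 167 to 84.6, 67.0, 94.6 and 23.6 CPM in engrafted cells. All host LPS libraries were below all graft LPS libraries, which the shallow mouse 4 approached most (difference 2.59, standard error 0.35, adjusted p = 2.56e-05 from edgeR). Nr4a1, an orphan nuclear receptor that restrains inflammation, had 87.3, 71.2, 56.9 and 134 CPM in host control and 18.3, 16.8, 26.5 and 39.7 in host LPS, and 262, 198, 197 and 226 in graft control and 347, 296, 193 and 310 in graft LPS (difference 2.08, standard error 0.34, adjusted p = 0.000251 from edgeR). The other leading members were the actin regulators Lsp1 (difference 1.79) and Tmsb10 (2.24), the tubulin gene Tuba1a (1.60), the receptor of platelet-activating factor Ptafr (1.65) and Dhrs1 (1.64). Of 22 immediate early genes, Nr4a1 had a higher and Atf3 a lower response in engrafted cells. The call of Atf3 (difference -1.10, adjusted p = 0.0212) was lost when any of 5 libraries was left out, with adjusted p of 0.0540 to 0.0647. Of 45 transcription factors of the macrophage lineage, Nr1h3 and Hes1 had a higher response in engrafted cells and Ahr and Mef2c a lower one. Among all tested genes, 2.36% and 2.4% had such calls.

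**Figure D3:**
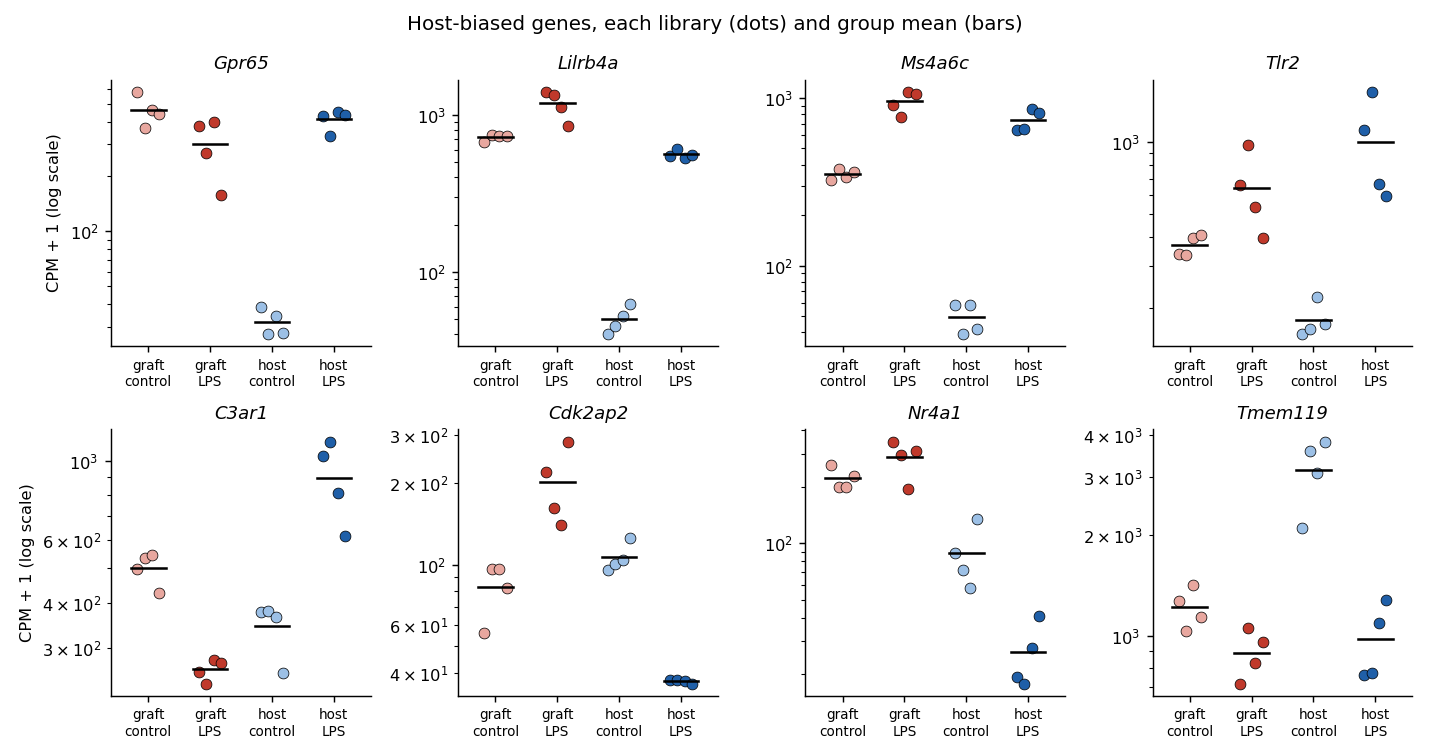
CPM plus 1 on a log scale for 8 host-biased genes, with 1 dot per library and a bar at the mean of the 4 libraries of a group. Gpr65, Lilrb4a and Ms4a6c rise in host LPS from a low host control to the range of engrafted cells or close to it, and Tmem119 falls in host LPS to the range of engrafted cells.

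Only 8 of the 895 genes called in both populations moved in opposite directions. St3gal5, which makes the ganglioside GM3, rose in engrafted cells from 11.4, 14.1, 6.80 and 5.64 to 52.3, 47.5, 51.8 and 67.9 CPM and fell in host microglia from 172, 182, 174 and 165 to 37.8, 32.6, 59.0 and 56.6 CPM, so that the populations overlapped after LPS. The difference of 4.05 (standard error 0.31, adjusted p = 1.43e-09 from edgeR; chr6:72047602-72104564) had the smallest adjusted p of the comparison together with that of Gpr65. Ceacam1, a cell adhesion receptor, Eva1b and Acot7, an acyl-CoA thioesterase, also rose in engrafted cells and fell in host microglia, with differences of 3.29, 2.92 and 3.02. Cdk2ap2 did so with the larger response in host microglia, where its 4 LPS libraries lay between 35.4 and 36.6 CPM (difference 2.74). R74862 did so at no more than 17.4 CPM in any library. Ero1lb, an oxidase of the endoplasmic reticulum, and Postn, periostin, fell in engrafted cells and rose in host microglia, Postn to 26.3, 23.7, 34.9 and 28.3 CPM from at most 3 reads per host control library, at least 8.8-fold. Opposite signs of the fitted values, called or not, were found for 133 of the 319 differential responders and for 2261 of all 8847 tested genes.

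For several genes that define the LPS response no difference was called. Tnf rose in engrafted cells from 155, 118, 170 and 135 to 445, 620, 293 and 275 CPM and in host microglia from 372, 399, 385 and 556 to 1601, 1804, 1079 and 947 CPM, at log2 responses of 1.49 and 1.66. Host microglia were higher in both states, and the response difference was -0.17 (standard error 0.35, adjusted p = 0.847 from edgeR). The NF-kappaB inhibitor Tnfaip3 rose by 2.43 and 2.47 on the log2 scale (difference -0.04, standard error 0.41, adjusted p = 0.974), and Spp1, osteopontin, by 4.30 and 3.16 (difference 1.15, standard error 0.57, adjusted p = 0.270). EdgeR called none of the 19 tested inflammatory cytokines (median -0.05), whereas the growth factor Igf1 was called lower in engrafted cells with the mouse as a block (-2.48), by DESeq2 (-2.47) and by limma-trend (-2.64), and was the 1 past the fold threshold at an unadjusted p below 0.05. EdgeR also called none of the 21 genes of endoplasmic reticulum stress (median 0.14; 0 past the fold threshold at an unadjusted p below 0.05), of which DESeq2 called the chaperone Calr (1.04). The microglial genes Trem2 and Aif1 fell in both populations with differences of -0.50 and -0.43 (adjusted p = 0.239 and 0.335), and the transcription factor Sall1, at 2.95 to 26.3 CPM in engrafted cells and 75.1 to 358 CPM in host microglia, had a difference of 0.83 (adjusted p = 0.430). Sall1 was called for LPS in host microglia alone, at log2 responses of -1.61 there and -0.78 in engrafted cells. Upk1b was at most 3 reads in every graft LPS library, and its response could not be compared as a fold (adjusted p = 0.276). It fell in host microglia from a mean of 239 to 27.8 CPM (log2 response -2.97, adjusted p = 2.8e-12 from edgeR). Its graft-to-host differences did not overlap between LPS and control mice (exact permutation p = 0.0286). Genes of disease-associated microglia went both ways. Engrafted cells had a higher response for 3 of 36 and a lower one for 4, beside 2.36% and 2.4% of all tested genes.

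Of 67 tested cytosolic ribosomal protein genes, 63 had a negative response difference and 4 a positive one, with a median of -0.72, beside 4690 negative values among all 8847 tested genes. The 14 called genes all had a lower response in engrafted cells, beside 2.4% of all tested genes called lower. The list had a median log2 response of -0.23 in engrafted cells and 0.56 in host microglia. Rps24 had 386, 825, 792 and 871 CPM in graft control, 400, 241, 438 and 295 in graft LPS, 236, 227, 209 and 156 in host control and 316, 317, 354 and 344 in host LPS (difference -1.73, standard error 0.31, adjusted p = 0.000584 from edgeR). Graft control mouse 5 stood apart below the other graft controls, and leaving out single libraries gave medians of the list between -0.92 and -0.55 and 9 to 18 called genes. These genes have many near-identical pseudogenes, and because uniquely mapped reads alone were counted, their levels are uncertain.

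**Figure D4:**
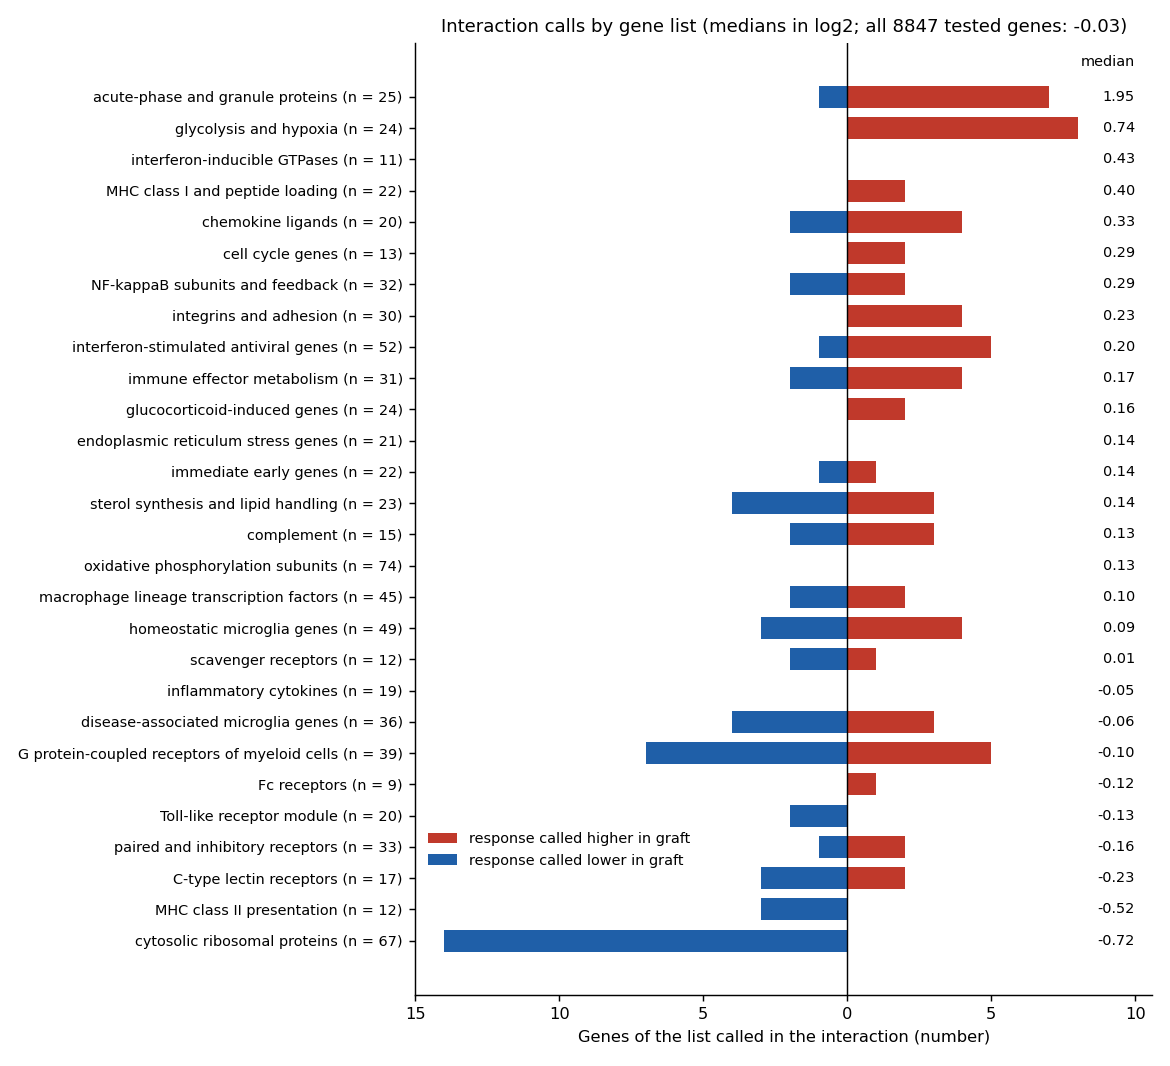
Number of genes of each list called for the response difference, to the right where the response was higher in engrafted cells and to the left where it was lower, with the median response difference (log2) of the tested members at the right edge. Acute-phase and granule proteins and glycolysis stand at the top with medians of 1.95 and 0.74, and cytosolic ribosomal proteins at the bottom with -0.72.

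The 4 classes differed in where the populations stood before challenge. The control and LPS comparisons below share all libraries with the response difference and are a description. Over all tested genes, 547 were higher in engrafted cells in the controls (6.18%) and 383 in host microglia (4.33%), and after LPS 585 (6.61%) and 390 (4.41%). Of the 142 graft-induced genes, 93 were called in neither direction in the controls, and after LPS 93 were higher in engrafted cells and 5 in host microglia. The median graft-minus-host log2 difference of this class went from -0.26 to 1.38. Of the 61 host-induced genes, 32 were higher in engrafted cells before challenge and none in host microglia, and after it 11 and 12 were, with medians of 1.04 and -0.47. Of the 75 graft-repressed genes, 45 were higher in engrafted cells before challenge and none in host microglia, and after it 6 and 15 were, with medians of 1.12 and -0.49. Of the 41 host-repressed genes, 16 were higher in host microglia before challenge and 2 in engrafted cells, and after it 2 and 16 were, with medians of -0.77 and 0.77. The absolute gap between the populations was wider after LPS for 108 of the 142 graft-induced genes, and narrower for 40 of the 61 host-induced and 50 of the 75 graft-repressed genes. It was narrower for 20 and wider for 21 of the host-repressed genes, and over all tested genes it was narrower for 4467 and wider for 4380.

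**Figure D5:**
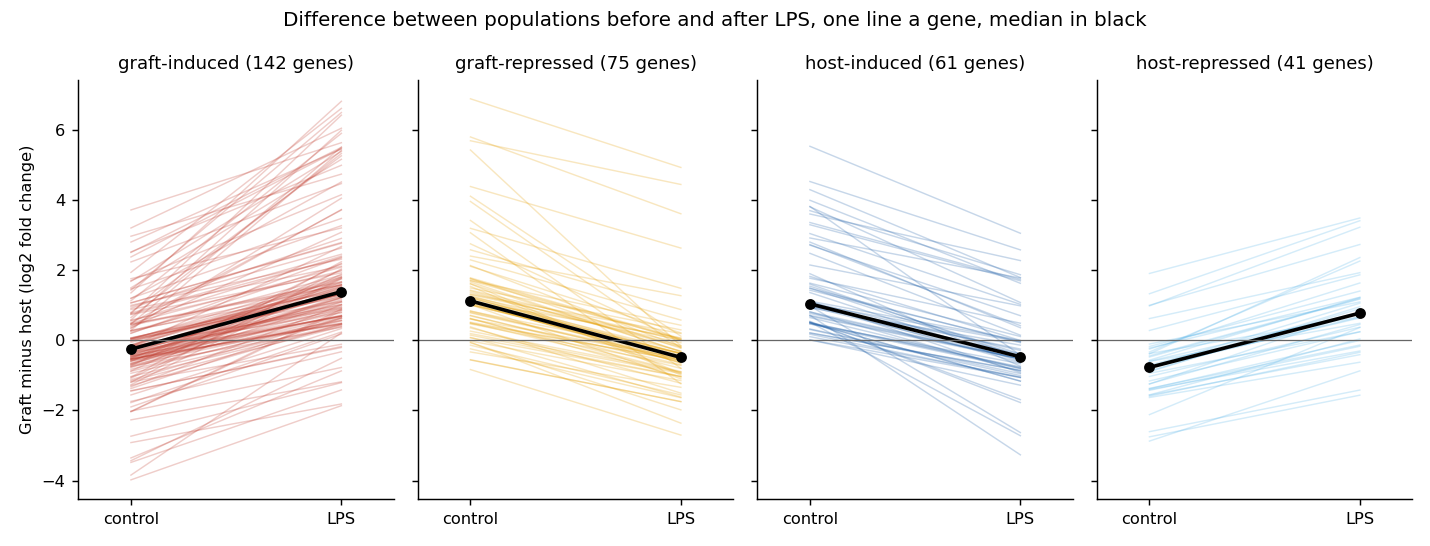
Graft-minus-host log2 fold change in control and in LPS mice for the genes of each class, with 1 thin line per gene and the median in black. The median of the graft-induced genes moves from -0.26 to 1.38, and those of the host-induced and graft-repressed genes start at 1.04 and 1.12 and end at -0.47 and -0.49.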

How the data were processed

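RNA from 16 sorted samples (8 mice, 2 populations) was sequenced by a 3′-end method derived from MARS-seq. The deposited table holds raw counts over exons on the sense strand for each gene, made by the authors from uniquely mapped reads on mm9. The submitters' processing notes name bcl2fastq, HISAT 0.1.5 and HOMER. Every row named a gene (share naming none: 0), and 0 columns of other samples were present. A 3′ method counts transcript ends, so levels are not comparable between genes.

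Counts were tested with edgeR 4.0.16 (R 4.3.3) by TMM scaling, filterByExpr (minimum count 10, minimum total 15), a model of 4 groups over all 16 libraries and its quasi-likelihood test; p-values were adjusted over all tested genes after Benjamini and Hochberg, and fold changes used a prior count of 2. The script was tested on simulated data. CPM are TMM-scaled. Per-mouse differences used log2(CPM + 2). A floor of 3 reads covers counting error only. Standard errors came from the edgeR fit, which estimates the spread between replicates. Replicates differed by more than sampling noise (chi-square per degree of freedom 1.98 to 8.64 in 24 pairs).

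Both libraries with the same number came from the same mouse. Deviations from group means correlated at -0.03 to 0.21 within mice and -0.06 to 0.01 between them. Centring on group means ties the values between mice to those within, so they are no separate reference. Named genes were, per class, the 8 largest response differences with a mean of at least 50 CPM in a group and no overlap over mice; called members of gene lists, at most 6 per list and direction; genes the study's text names; and genes called in opposite directions. The genes and lists were chosen with earlier results of these data known. Genes given as examples beyond this rule were chosen after their values were seen. Alternatives were other scalings, filters and thresholds, DESeq2 1.42.0, limma-trend 3.58.1, a mouse block, separate fits and leaving out each library. Promoters came from RefSeq (GRCm38.p6), matched by RefSeq transcript, or by symbol where that failed, for 7166 of 8847 tested genes. For 1489 genes with more than 1, the first entry was used.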

Additional observations from a re-analysis of the deposited data

Results flagged for a closer look

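The response to LPS differed between engrafted cells and host microglia for 319 genes by the test of the interaction, and 8 genes were called in both populations with opposite directions. In 27 of the 487 combinations of a named gene and a group, 1 of the 4 libraries lay apart from the other 3 (beyond the critical value of Dixon's test), and chance alone gives about 1 in 20. The engrafted cells of LPS mouse 4, the shallowest library, accounted for 6 of these, with 53.1 CPM of Cxcl14, 103 of Ceacam1, 35.4 of Ank, 2999 of Cd74 and 257 of Gpr183 above the other graft LPS libraries and 5.90 of Acot7 below them. Graft control mouse 5 was low for Rplp2 (75.8 CPM), Rps24 (386), Rpl35a (20.8) and Plin2 (30.1). Host control mouse 8 was high for Tnf (556 CPM), Saa3 (140) and Lgals3 (30.7) and low for C3ar1 (255).

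Graft LPS mouse 3 was low for Isg15 (311 CPM) and Oas3 (44.1), and graft LPS mouse 1 was high for Eif2ak2 (79). Graft control mouse 8 was high for Ccl6 (111 CPM) and Lgals3 (269). Host LPS mouse 2 was high for Trem2 (1457 CPM) and Cst7 (234) and low for Anxa2 (8.89). Host LPS mouse 3 was high for Dhrs1 (38.6 CPM) and host LPS mouse 4 for Atf3 (497). Host control mouse 7 was high for Dhx58 (34.0 CPM) and Rps29 (31.6), and host control mouse 5 was low for Upk1b (206).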

How the results depend on the processing

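Requiring 10 reads in every library, in fewer tested genes, gave 130 higher and 104 lower calls for the response difference, 320 rises and 358 falls in engrafted cells, 262 and 334 in host microglia, and 163 differential responders (76 graft-induced, 34 graft-repressed, 31 host-induced, 22 host-repressed). An unadjusted p gave 326 higher, 389 lower and 503 responders, with 145 graft-repressed, 93 host-induced and 71 host-repressed. Without a fold threshold, 1681 genes rose and 1865 fell in engrafted cells, 1544 and 1636 in host microglia, and 518 responders included 147 graft-repressed, 108 host-induced and 72 host-repressed. Testing LPS on the 8 libraries of each population alone gave 65 host-repressed genes; the cause was not tested. Leaving out single libraries gave 130 to 234 lower calls and 44 to 91 graft-repressed genes.

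With the mouse as a block (the pairing of both libraries), 351 responders were called, of which 309 were shared with the 319 (10 lost, 42 gained). It also called list members such as Gbp2, Igf1, Plac8, Lcn2 and H2-Aa. It kept all 117 named calls and turned the uncalled difference of Tnfaip3 from -0.04 to 0.01, as limma-trend did to 0.04 and single libraries left out from -0.29 to 0.24. DESeq2 called 361 responders, limma-trend 399, RLE scaling 328, library totals 308 and no filter 409. Chosen after seeing the data, leaving out LPS mouse 4 gave 349, and leaving out genes with a group at 3 reads or fewer gave 301. These settings kept 73.4 to 100% of the 319 genes except the filter of 10 reads (48.3%). Of the 117 called named genes, 31 lost the call without at least 1 library. Depth limits genes near 3 reads in a group.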

Other observations

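Genes of chaperones, which fold proteins under stress, were no list of this comparison and were noticed after their values were seen. Of 52 tested genes whose symbols begin with Hsp or Dnaj, 36 had a negative response difference (4690 of all 8847). The response was called lower in engrafted cells for 6, beside 2.4% of all tested genes, and higher for 0. Of the 52, 5 were graft-repressed, beside 0.848% of all tested genes. Hsph1 went from a mean of 85.3 to 15.1 CPM in engrafted cells and from 24.8 to 21.2 CPM in host microglia (response difference -1.99, standard error 0.40, adjusted p = 0.0021 from edgeR). Hsp90aa1 went from 61.6 to 23.6 CPM in engrafted cells and from 29.5 to 31.1 CPM in host microglia (difference -1.37, adjusted p = 0.0163), and Dnajb14 (-1.90), Dnajb6 (-1.63) and Dnaja1 (-1.12) had the same sign. Hsp90ab1, which was called for LPS in neither population, had a difference of -1.17 (adjusted p = 0.00126), and Hspa8 one of -0.76, under the fold threshold.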
